A study of Mus musculus with 2 samples.

Results

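The subject is a group of 5 genes for ligands that antigen-presenting cells show to T cells: Cd80, Cd86, Icosl, Cd274 and Pdcd1lg2. They were chosen by symbol and are 5 of the 32285 genes listed for thymic epithelial cells (TECs) of mice. Cd80 and Cd86 encode the B7 ligands of CD28 and CTLA-4. Icosl encodes the ligand of ICOS. Cd274 encodes PD-L1 and Pdcd1lg2 encodes PD-L2, the ligands of the inhibitory receptor PD-1.

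In the thymus, cortical TECs (cTECs) select immature thymocytes, and medullary TECs (mTECs) present tissue antigens under the control of the regulator Aire. Ligands of CD28 and ICOS provide the second signal beside the T cell receptor and take part in the deletion of self-reactive thymocytes and in the formation of regulatory T cells. PD-1 ligands dampen that signal. A high surface level of CD80 is widely used to mark mature mTECs.

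TECs were sorted as EpCAM+ CD45- TER119- cells from C57BL/6 mice labelled as 9 weeks old (a protocol in the labels gives another age), either 15 days after a sublethal dose of total body gamma irradiation or from age-matched controls without irradiation. Each condition was 1 droplet library made from the pooled cells of 3 mice. Differences between the libraries therefore have no replicate check, and irradiation cannot be told apart from the pool of mice or from the preparation of the library. The unit throughout is the unique molecular identifier (UMI), 1 captured RNA molecule, given per 10000 UMIs of the cells concerned.

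The sample labels and the deposited matrices disagree on which library is which. The sample titled as irradiated carries the matrix named as control, and the reverse. After the stated cell filter the matrix named as irradiated held 5070 cells and the one named as control 3233, which are the numbers that the study's text gives for those conditions. The matrices are called irradiated and control accordingly, against the sample labels. If the sample labels were right, every difference between the libraries given here would change its sign, while differences between classes of cells would stay as they are.

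The 5 genes lie at 3 places in the genome (GRCm38, GENCODE M21). Cd274 (chr19, 29367455 to 29388095, plus strand) and Pdcd1lg2 (chr19, 29410919 to 29471161, plus strand) are neighbours, 22823 bases apart with 0 annotated genes between them. Each overlaps an antisense gene (AC119228.1 and A930007I19Rik), and whether the counting used strand is not given in the sources used here. Icosl (chr10, 78069302 to 78083913, plus strand) starts 25691 bases from Aire (78030022 to 78043610, minus strand), again with 0 genes counted between. Aire overlaps the protein-coding gene Dnmt3l (plus strand), which is not in that count. Cd80 (chr16, 38455561 to 38496335, plus strand) and Cd86 (36603869 to 36666081, minus strand) share a chromosome, with 46 genes in the gap. The bases before the RefSeq starts of the neighbours Cd274 and Pdcd1lg2 (GRCm38.p6, plus strand) are shown because these genes had unlike patterns over TEC classes. Capitals mark the motif matches that were found.

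Cd274, chr19:29367188-29367437: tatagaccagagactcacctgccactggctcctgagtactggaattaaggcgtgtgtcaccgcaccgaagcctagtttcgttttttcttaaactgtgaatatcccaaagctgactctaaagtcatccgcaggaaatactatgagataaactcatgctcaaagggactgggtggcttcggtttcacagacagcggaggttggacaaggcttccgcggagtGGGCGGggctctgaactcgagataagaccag
Pdcd1lg2, chr19:29410669-29410918: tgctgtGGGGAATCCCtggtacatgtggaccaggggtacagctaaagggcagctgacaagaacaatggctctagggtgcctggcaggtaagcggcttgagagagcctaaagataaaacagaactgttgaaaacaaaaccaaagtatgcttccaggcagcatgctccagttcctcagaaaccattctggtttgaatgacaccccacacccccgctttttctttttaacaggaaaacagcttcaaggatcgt

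The searched motifs, on both strands of the 250 bases before the start, were the 10-base NF-kB motif, the 10-base interferon-response motif ISRE, the STAT motif GAS (TTCNNNGAA), AP-1 (TGANTCA), the GC box (GGGCGG) and the TATA box (TATAAA). The Cd274 window held a GC box 31 to 26 bases before the start, a motif found in 32.7% of the 32851 windows of all genes. The Pdcd1lg2 window held an NF-kB match 244 to 235 bases before the start, found in 3.9% of all windows. The windows of the other two genes with an entry held an AP-1 match (Cd80, in 6.75% of all windows) and a GC box (Icosl). None of these matches overlapped another, and neither ISRE nor GAS letters occurred in the 4 windows. RefSeq starts can differ from the gene starts listed above. The Cd80 window (38458683 to 38458932) lies inside the gene as listed, and the Icosl window (78069118 to 78069367) reaches past its listed start. The GC content of the window was 68.8% for Icosl and between 48.4% and 52.8% for the other 3, beside a median of 52.4% over all windows.

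Cells with 2000 to 7500 detected genes and under 15% mitochondrial UMIs were kept, with a median of 13412 UMIs a cell in the control and 13003.5 in the irradiated library. Only 5 of the kept cells' barcodes occurred in both libraries. Kept cells were put into 12 classes by marker UMIs alone. None of the 5 ligands was used. In all, 2732 control and 4419 irradiated cells passed 1 gate. Classes defined by 1 gene are named by that gene (Aire-high, Aire-intermediate, Ccl21a-high, Pdpn-positive). Those defined by a marker list are called cTEC-like, nurse cTEC-like (cTEC markers together with thymocyte RNA), tuft-like, microfold-like, enterocyte-like and keratinocyte-like. Dividing cells outside the cTEC and tuft gates are the G2/M and S phase classes, also where they passed the Aire or the Ccl21a gate. Ccl21a was at 5.77 and 9.42 UMIs per 10000 in G2/M cells (control and irradiated) and at 25.9 and 31.5 in S phase cells. In Aire-high cells it was at 1.25 and 1.27. RNA of the epithelial markers Epcam, Krt5, Krt8, Krt14 and Krt18 was present in each class, at 37.8 to 118 UMIs per 10000 in sum.

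The 3 costimulatory ligands Cd80, Cd86 and Icosl had their highest mean levels in Aire-high cells and were close to absent from cTEC-like cells. Cd274 had the reverse order between those classes, with its highest levels in nurse cTEC-like, cTEC-like and microfold-like cells. Pdcd1lg2 was shared by Aire and Ccl21a-high cells and nearly missing from cTEC-like cells. Each class was compared with the Aire-high class by edgeR's quasi-likelihood test on UMIs summed per class and library, with Benjamini-Hochberg adjustment over 15287 genes. The 2 libraries served as the replicates of a class. The p-values weigh a class difference against the variation between libraries that a library term leaves, over all 12 classes. The libraries also differ in irradiation, so that variation holds any unlike effect of irradiation on the classes. Of the 55 comparisons (5 genes, 11 classes), 35 were lower than in Aire-high cells, 3 were higher and the others did not pass the threshold of 0.05.

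**Figure D1:**
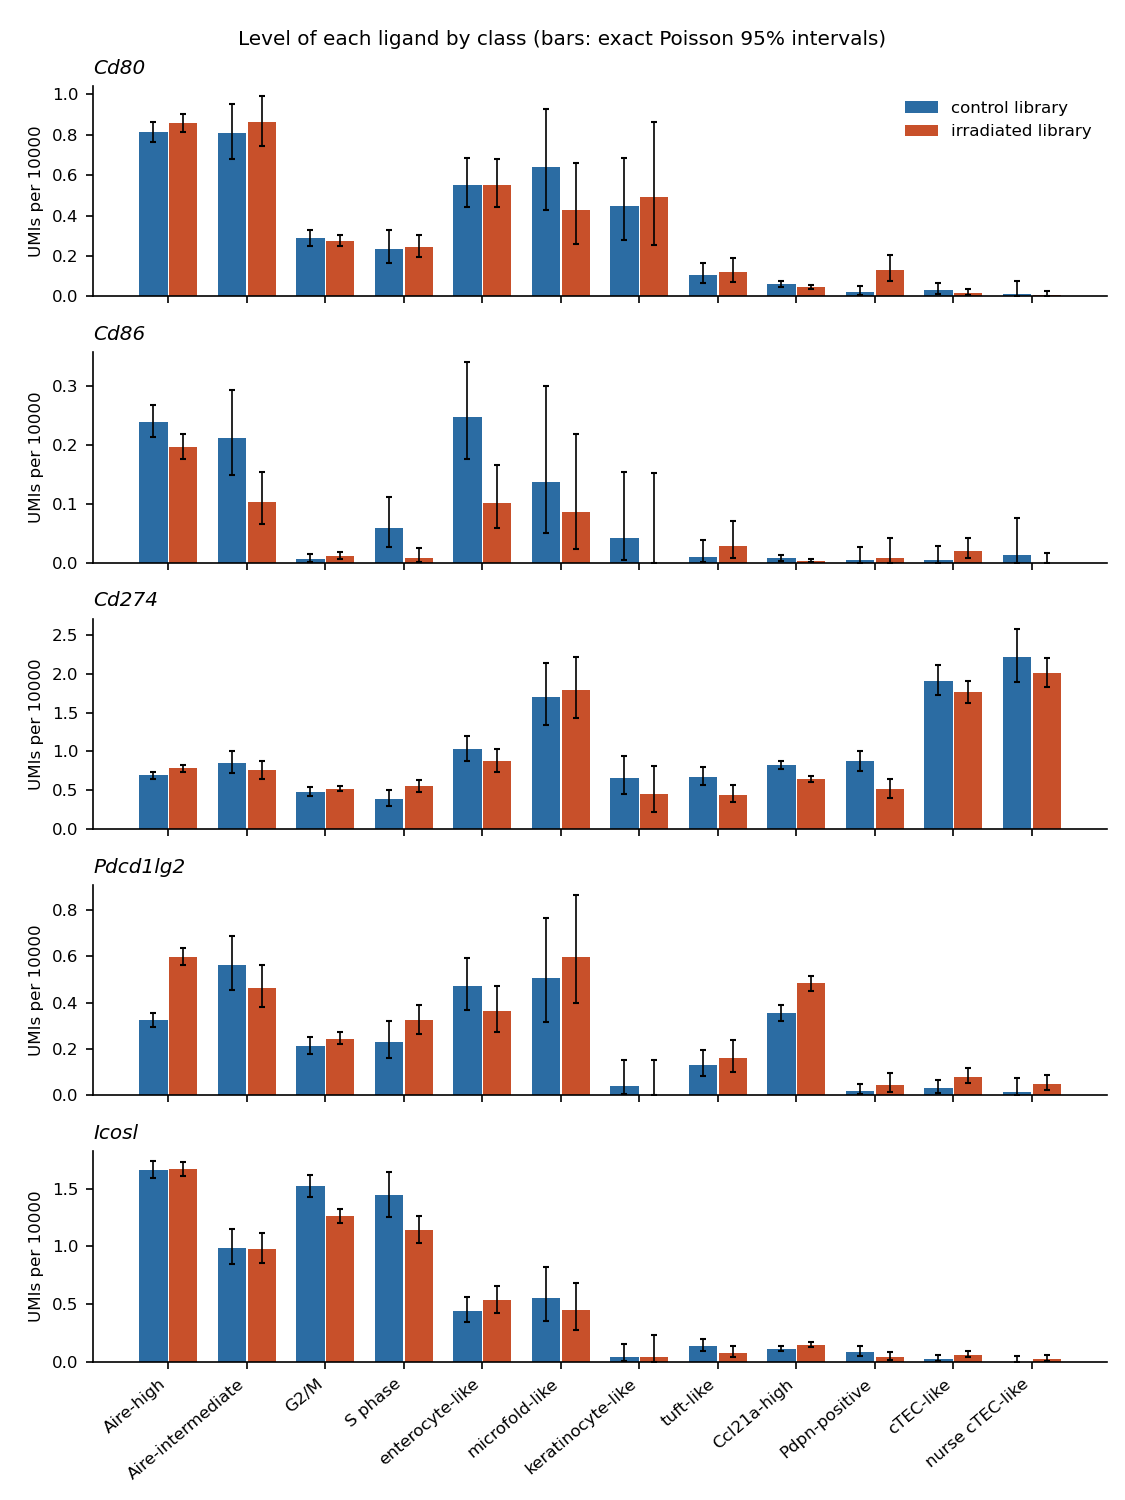
UMIs per 10000 of each ligand in the 12 classes, in the control (blue) and irradiated (orange) library, with bars for the exact Poisson 95% interval (counting error alone). Icosl stands highest in the Aire-high class and Cd80 in or beside it. Cd86 stands highest in Aire-high cells of the irradiated library and in enterocyte-like cells of the control library (0.248, against 0.239 in Aire-high cells). Cd274 stands highest in nurse cTEC-like, cTEC-like and microfold-like cells, at 1.7 to 2.21 UMIs per 10000.

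Icosl reached 1.66 UMIs per 10000 in Aire-high cells of the control library and 1.67 in those of the irradiated library. Dividing cells followed, at 1.52 and 1.26 in G2/M and 1.44 and 1.14 in S phase cells. The values of the G2/M and S phase classes overlapped, and neither passed the test against the Aire-high class (log2 difference -0.15 ± 0.19 (SE) for G2/M, adjusted p = 0.539). Aire-intermediate cells had a lower level, 0.99 and 0.978, and this was the only one of the 5 ligands that passed the test in that class (-0.88 ± 0.21, adjusted p = 0.0339). Over all genes, 1.41% were lower in Aire-intermediate cells.

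Outside the Aire and dividing classes the level of Icosl was much lower. Microfold-like cells had 0.551 and 0.447 UMIs per 10000, and enterocyte-like cells 0.443 and 0.534, which overlap. Ccl21a-high cells had 0.114 and 0.149, a log2 difference of -3.62 ± 0.22 from Aire-high cells (adjusted p = 5.13e-10). In cTEC-like cells it was 0.0257 and 0.0602 (-5.31 ± 0.30, adjusted p = 2.31e-10), from 5 and 21 UMIs. Nurse cTEC-like cells held 0 control and 6 irradiated UMIs of Icosl.

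Cd80 had almost the same level in Aire-high (0.813 control, 0.858 irradiated) and Aire-intermediate cells (0.808 and 0.862). It was lower in dividing cells, at 0.287 and 0.276 in G2/M, and this difference passed the test (-1.46 ± 0.21, adjusted p = 2.86e-05). Enterocyte-like cells (0.554 and 0.553), microfold-like cells (0.643 and 0.426) and keratinocyte-like cells (0.447 and 0.494) lay between, and neighbours among these 3 overlapped. In Ccl21a-high cells the level was 0.0618 and 0.0463 (-3.94 ± 0.24, adjusted p = 5.98e-10). In cTEC-like cells it was 0.0308 and 0.0172, 6 UMIs in each library (-5.40 ± 0.36, adjusted p = 1.5e-09).

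Cd86 was the sparsest of the 5, with 471 control and 493 irradiated UMIs. Aire-high cells held 302 and 330 of these, a level of 0.239 and 0.196 UMIs per 10000. Enterocyte-like cells (0.248 and 0.102), Aire-intermediate cells (0.212 and 0.103) and microfold-like cells (0.138 and 0.0852) overlapped with one another in the order, and none of these 3 passed the test against Aire-high cells. G2/M cells, in contrast, had only 4 and 16 UMIs of Cd86, or 0.00598 and 0.0111 per 10000 (-4.33 ± 0.56, adjusted p = 1.01e-05). Ccl21a-high cells had 9 and 6 UMIs (-5.35 ± 0.59, adjusted p = 6.54e-07) and cTEC-like cells 1 and 7. Of the 7 in irradiated cTEC-like cells, 6 came from 1 cell.

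Cd274 was found in every class. Nurse cTEC-like cells had 2.21 and 2.02 UMIs per 10000, cTEC-like cells 1.91 and 1.76 and microfold-like cells 1.7 and 1.79. These were the 3 comparisons in which a ligand was higher than in Aire-high cells: the log2 difference was 1.16 ± 0.21 in nurse cTEC-like (adjusted p = 0.000139), 1.12 ± 0.20 in cTEC-like (adjusted p = 0.000132) and 1.26 ± 0.24 in microfold-like cells (adjusted p = 0.000956). Of all genes, 21.7%, 25.2% and 10.7% were higher in those classes. The nurse cTEC-like class had 22 control and 82 irradiated cells, and the microfold-like class 30 and 37. In control nurse cTEC-like cells 20.7% of the Cd274 UMIs came from 1 cell. Aire-high (0.694 and 0.782), Ccl21a-high (0.829 and 0.645) and Pdpn-positive cells (0.875 and 0.513) overlapped. In the control library the lowest values were those of S phase (0.387) and G2/M cells (0.481). In the irradiated library tuft-like (0.445), keratinocyte-like (0.453) and Pdpn-positive cells (0.513) were below G2/M (0.521) and S phase cells (0.549).

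Pdcd1lg2 had no single class at the top. Microfold-like (0.505 and 0.597), Aire-intermediate (0.56 and 0.464), Aire-high (0.324 and 0.597), Ccl21a-high (0.355 and 0.482) and enterocyte-like cells (0.469 and 0.362) overlapped with their neighbours in the order. The difference between the Ccl21a-high and Aire-high classes did not pass the test (-0.09 ± 0.22, adjusted p = 0.73). In cTEC-like cells Pdcd1lg2 had 6 and 28 UMIs, or 0.0308 and 0.0803 per 10000, and it was lower than in Aire-high cells (-3.10 ± 0.33, adjusted p = 4.36e-07), where its neighbour Cd274 was higher. In Pdpn-positive cells, with 4 and 6 UMIs, Pdcd1lg2 was lower too (-4.09 ± 0.43, adjusted p = 4.05e-07), while the difference of Cd274, with 182 and 68 UMIs, did not pass the test (-0.27 ± 0.22, adjusted p = 0.309). Dividing cells were lower as well (G2/M, -0.87 ± 0.23, adjusted p = 0.0052).

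Counted by class, 4 of the 5 ligands were lower and 1 higher in cTEC-like cells, where 35.1% and 25.2% of all genes were lower and higher. In Ccl21a-high cells 3 were lower and 0 higher, beside 32.5% and 30.6% of all genes, and in G2/M cells 3 were lower and 0 higher, beside 23% and 26.2%. In tuft-like cells all 5 were lower (31.1% of all genes), with Cd274 the least so (-0.59 ± 0.22, adjusted p = 0.0344). S phase cells had 4 lower (25%) and 0 higher (21.2%), Pdpn-positive cells 4 lower (31.6%) and 0 higher (24.7%), and nurse cTEC-like cells 4 lower (35.2%) and 1 higher (21.7%). Microfold-like cells had 1 lower (10.3%) and 1 higher (10.7%), enterocyte-like cells 2 lower (14.7%) and 0 higher (14.3%), and Aire-intermediate cells 1 lower (1.41%) and 0 higher (0.778%). In keratinocyte-like cells 4 were lower (17.1%) and 0 higher (14%), Cd274 being the exception (-0.60 ± 0.31, adjusted p = 0.155). These were only 32 control and 23 irradiated cells. They held 2 and 0 UMIs of Cd86, 2 and 0 of Pdcd1lg2 and 2 and 1 of Icosl. With relative log expression factors, the scaling that DESeq2 uses, the median gene of the Ccl21a-high comparison moved from 0.02 to -0.23 on the log2 scale and the share of called genes that were higher from 48.5% to 35.4%, so the difference of Cd274 in that class, 0.01 ± 0.19, has no settled sign. In the G2/M comparison the same scaling moved the median gene from 0.03 to -0.20 and the higher share from 53.3% to 36.7%, and the difference of Cd274 from -0.44 ± 0.20 (adjusted p = 0.0728) to -0.67, which then passed the test. The median log2 difference of the 5 ligands was -4.00 in cTEC-like and -3.62 in Ccl21a-high cells, beside -0.16 and 0.02 over all genes.

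RNAs used as markers of haematopoietic cells were found in Aire-high cells. Summed over 6 macrophage markers they came to 9.02 and 8.29 UMIs per 10000, mostly Lyz2 (in 71.8% and 64.4% of cells), against 1.36 and 0.872 in Ccl21a-high and 1.79 and 2.05 in cTEC-like cells. The 7 dendritic cell markers came to 0.342 and 0.315, with Itgax in 0.465% and 0.39% of cells, and Ptprc (CD45) was found in 3.57% and 1.85%. Each cell with Ptprc or with at least 2 of the macrophage, dendritic cell and B cell markers was then removed. The 177 and 332 Aire-high cells that remained had Cd80 at 0.841 and 0.846, Icosl at 1.83 and 1.83 and Cd86 at 0.213 and 0.124 UMIs per 10000. Pdcd1lg2 was at 0.229 and 0.528, against 0.324 and 0.597 before removal. Cd274 was at 0.69 and 0.804, against 0.694 and 0.782. The part of such RNA in the levels of the ligands was not tested further.

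To set division beside the level of Aire, cells of the Aire-high, Aire-intermediate, G2/M and S phase classes were placed in bins of their own Aire level. Icosl was higher at higher Aire levels in dividing and in other cells. Among dividing cells of the control library it was 0.514 UMIs per 10000 below 1.5 Aire UMIs per 10000, 1.36 from 1.5 to 4, 1.83 from 4 to 8 and 2.2 from 8 to 16. In the irradiated library the same bins gave 0.48, 1.37, 1.63 and 1.86. Cells that were not dividing went from 0.99 at 1.5 to 4 up to 2.1 at 16 or more in the control library, and from 0.978 to 2.04 in the irradiated library. At the same Aire level of 4 to 8, dividing cells had more Icosl than others (1.83 and 1.63 against 1.11 and 1.26), and their intervals did not overlap. At 8 to 16 this held in the control library (2.2 against 1.72), while the intervals overlapped in the irradiated one (1.86 against 1.65). At 16 or more the intervals overlapped in both libraries (2.73 in 7 dividing control cells against 2.1, and 2.005 in 36 dividing irradiated cells against 2.04).

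Cd86 behaved differently. In dividing cells with 4 to 8 Aire UMIs per 10000 it had 2 UMIs in 57 control cells and 1 UMI in 133 irradiated cells, whereas non-dividing cells of the same bin held 77 UMIs in 180 cells and 92 in 255. The levels were 0.0112 and 0.00303 against 0.222 and 0.226 UMIs per 10000. At 8 to 16 Aire UMIs the dividing cells again had 1 and 7 UMIs, and the others 135 and 127. Over all bins, control S phase cells held 9 UMIs of Cd86 (0.059 per 10000), of which 8 came from 1 cell. Irradiated S phase cells held 3 (0.00875). In non-dividing cells Cd86 was 0.212, 0.222, 0.243 and 0.248 in the 4 bins of the control library, each above the last but with overlapping intervals, and 0.103, 0.226, 0.159 and 0.232 in the irradiated library.

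Cd80 took a middle course. Dividing cells went from 0.0849 and 0.0957 below 1.5 Aire UMIs per 10000 to 0.38 and 0.422 at 8 to 16, while non-dividing cells held between 0.774 and 0.939 in each bin. Cd274 in non-dividing control cells was 0.849, 0.907, 0.652 and 0.554 from the lowest to the highest of the 4 bins, and the intervals of the lower pair of bins did not overlap that of the top bin. In irradiated cells it was 0.759, 0.887, 0.768 and 0.715, and the intervals of the first and last bin overlapped. These bins are a description: cells of 1 pool are not replicates, and the intervals cover counting error alone, not the spread between cells. The median depth differs between dividing and other cells, and the bins of a library share its depth. Dividing cells with little Aire can also include cells that passed the Ccl21a gate, a class low in Icosl when not dividing.

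**Figure D2:**
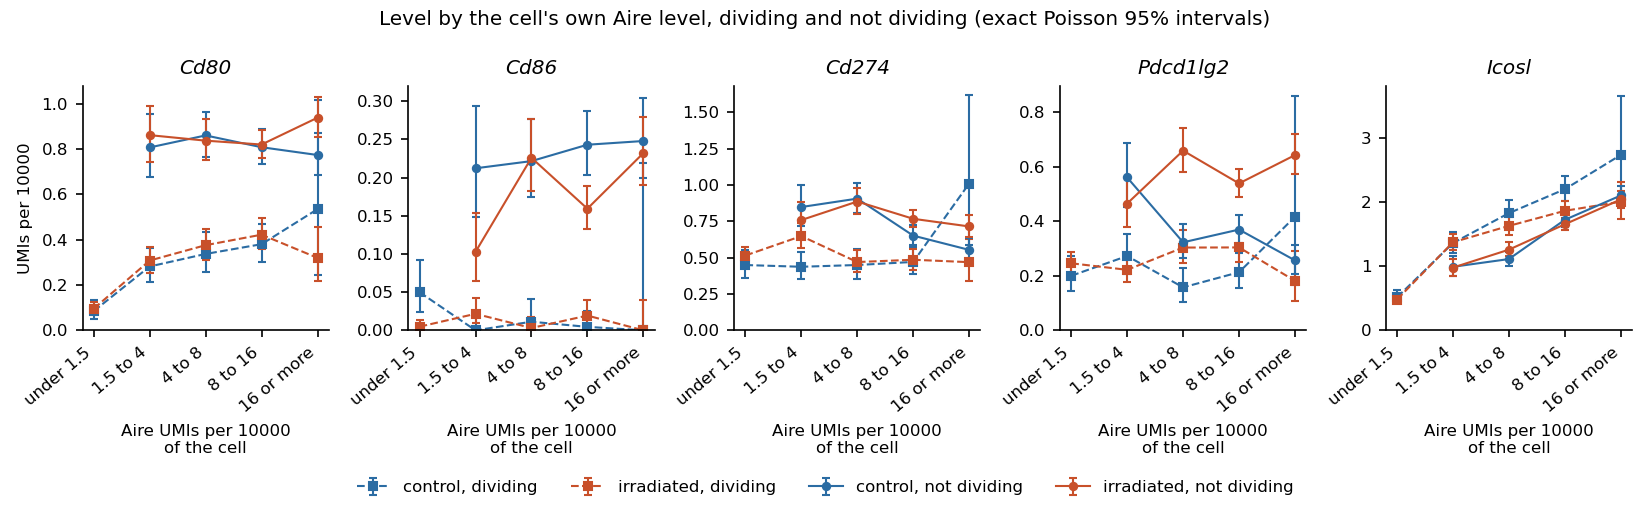
UMIs per 10000 of each ligand against the Aire level of the cell (x axis, 5 bins of Aire UMIs per 10000), for dividing cells (squares, dashed) and other cells (circles, solid) of the control (blue) and irradiated (orange) library, with exact Poisson 95% intervals. Icosl is higher at higher Aire levels in all 4 series, whereas Cd86 lies near 0 in dividing cells and between 0.103 and 0.248 in the others.

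The share of cells with a UMI was compared at an equal depth of 4000 UMIs drawn from each cell. Of the Aire-high cells, 46% (exact Clopper-Pearson 95% interval 42.1 to 50) of the control library and 45.5% (42.4 to 48.6) of the irradiated library had a UMI of Icosl. Cd80 was found in 28.1% and 27.7%, and Cd86 in 8.22% and 6.04%. In cTEC-like cells, which served as the background for these 3 genes, the shares were 0% and 1.38% for Icosl, 2.65% and 0% for Cd80 and 0.885% and 0.461% for Cd86, at median depths of 15764 and 14709 UMIs before thinning against 19027 and 15846 in Aire-high cells. For Icosl, 0 of 113 control cells allows a share of cells with a UMI at this depth of up to 2.65% (3 counts) or 3.21% (exact interval), and 3 of these 113 cells had one before thinning. Cd274 was found in 43.4% and 42.4% of cTEC-like cells and in 19.5% and 26% of Aire-high cells. Without thinning, 83.1% and 80.2% of Aire-high cells had Icosl and 63.3% and 61.3% had Cd80.

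**Figure D3:**
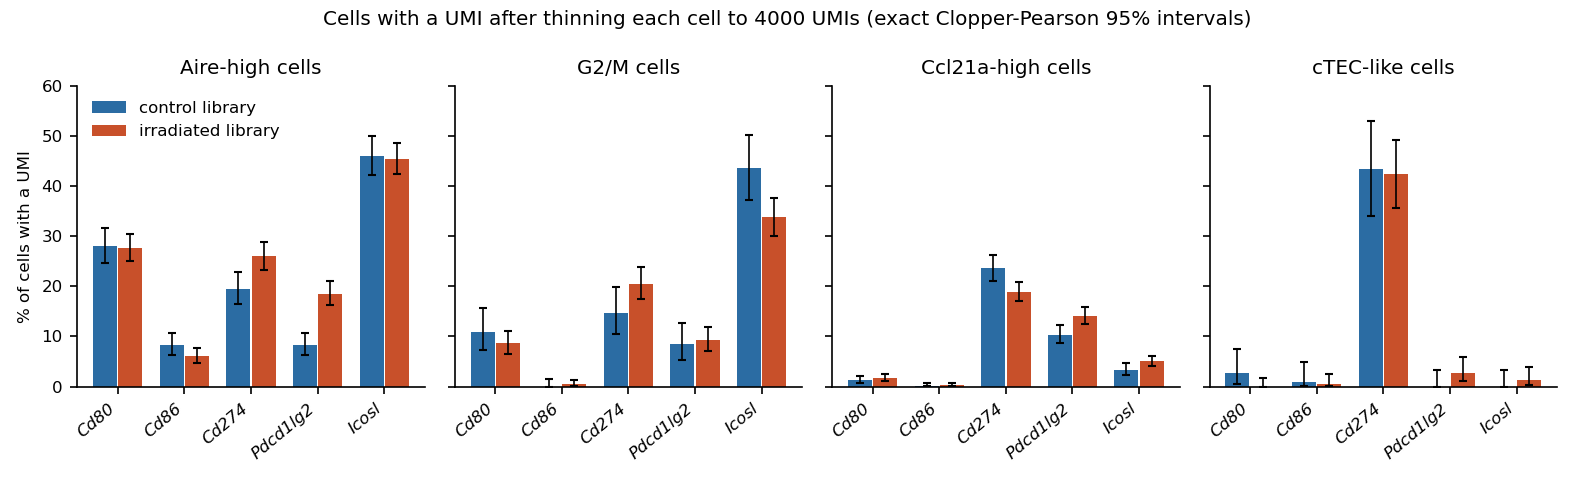
Percentage of cells with at least 1 UMI of each ligand after thinning to 4000 UMIs a cell, in 4 classes, for the control (blue) and irradiated (orange) library, with exact Clopper-Pearson 95% intervals. Icosl leads in Aire-high and G2/M cells, Cd274 in cTEC-like (43.4% and 42.4%) and Ccl21a-high cells (23.6% and 19%), and Pdcd1lg2 in Aire-high cells differs between the libraries (8.22% and 18.5%).

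Before thinning, Cd86, the sparsest ligand, was also held by the fewest Aire-high cells (108 control and 147 irradiated). After thinning, 53 control Aire-high cells held Cd86 and 53 held Pdcd1lg2. The 5% of these cells with the most Cd86 held 57.9% (control) and 65.5% (irradiated) of its UMIs. The shares were 38.8% and 38.2% for Pdcd1lg2, 30.9% and 24.8% for Cd274, 23.4% and 24.4% for Cd80 and 17.6% and 18.6% for Icosl. Such a share is higher for a sparser gene by counting alone. The variance of UMIs over their mean was 4.21 and 3.69 for Cd86, 3.06 and 3.72 for Pdcd1lg2 and 3.75 and 2.30 for Cd274. After thinning, Cd80 was found in 52.8% (38.6 to 66.7) of control Aire-high cells with Cd86 and in 25.8% (22.4 to 29.6) of those without. In the irradiated library the shares were 38.7% (26.6 to 51.9) and 27% (24.2 to 29.9), whose intervals overlap. Cd274 was found in 39.6% of control cells with Pdcd1lg2 and in 17.7% of those without, and in 35.3% (28.5 to 42.5) and 23.9% (21.1 to 27) in the irradiated library. For Icosl the shares were close: it was found in 44.2% of control cells with Cd80 and 46.8% of those without, and in 47.9% and 44.6% of irradiated cells. At least 2 of the 5 ligands were seen in 29% of control and 36.3% of irradiated Aire-high cells, and in 0.885% and 2.3% of cTEC-like cells.

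Ccl21a-high cells differed among themselves. Those with at least 2 UMIs of Ccl11 per 10000, a chemokine of this compartment, had more Pdcd1lg2 (0.495 control, 0.636 irradiated) than those below (0.191 and 0.296). Cd274 went the same way (0.974 and 0.699 against 0.66 and 0.58). Icosl had the opposite order, 0.0712 and 0.0875 with Ccl11 against 0.163 and 0.224 below. In each of these 3 genes and both libraries the intervals of the 2 sets of cells did not overlap. These intervals cover counting error alone and not the spread between cells.

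Between the libraries, Pdcd1lg2 showed the largest difference in Aire-high cells. The 645 control cells held 410 UMIs, or 0.324 per 10000, and the 1026 irradiated cells 1004 UMIs, or 0.597 per 10000, a log2 ratio of 0.88 (exact 95% interval 0.71 to 1.05, counting error only). It was the only 1 of the 5 ligands past 1.5-fold in these cells, where 4.05% of 15782 genes were higher and 8.96% lower by that much. The difference was present at 4 to 8 Aire UMIs per 10000 (0.322 control, 0.658 irradiated), at 8 to 16 (0.369 and 0.538) and at 16 or more (0.256 and 0.642), but Aire-intermediate cells had the other sign without the interval leaving 0 (0.56 and 0.464, log2 ratio -0.27, -0.69 to 0.15). Of the control UMIs in Aire-intermediate cells, 35.8% came from 1 cell. The share of thinned Aire-high cells with a UMI was 8.22% (6.22 to 10.6) and 18.5% (16.2 to 21). Without the 1% of cells with the most Pdcd1lg2 the log2 ratio was 0.92, and without cells with haematopoietic UMIs 1.21.

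Ccl21a-high cells also had more Pdcd1lg2 in the irradiated library, 0.482 against 0.355 UMIs per 10000 (log2 ratio 0.44, 0.28 to 0.61), which is within 1.5-fold. Its neighbour Cd274 had the other sign there, with 0.829 in the control and 0.645 in the irradiated library (-0.36, -0.48 to -0.24). In these cells 0 of 4 ligands with at least 50 UMIs were past 1.5-fold, beside 1.66% of all genes higher and 4.56% lower. Over all kept cells Pdcd1lg2 was at 0.294 and 0.399 (0.44, 0.35 to 0.53).

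Icosl and Cd80 were almost level between the libraries in Aire-high cells, with log2 ratios of 0.00 (-0.08 to 0.09) and 0.08 (-0.04 to 0.19). Icosl was lower in the irradiated library in G2/M cells, at 1.52 and 1.26 UMIs per 10000 (-0.27, -0.38 to -0.16), and in S phase cells, at 1.44 and 1.14 (-0.34, -0.58 to -0.09). Among dividing cells with under 1.5 Aire UMIs per 10000, which were 96 cells of the control and 353 of the irradiated library, the intervals of Icosl overlapped (0.514 and 0.48). The level of Aire itself was 5.51 and 5.28 UMIs per 10000 in G2/M cells, and 4.77 and 3.78 in S phase cells. That of Ccl21a was 5.77 and 9.42 in G2/M cells, and 25.9 and 31.5 in S phase cells. Whether the make-up of the dividing classes bears on the difference of Icosl was not tested.

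Cd86 was lower in the irradiated library over all kept cells, at 0.0913 and 0.0653 UMIs per 10000 (-0.48, -0.67 to -0.30). In Aire-high cells the log2 ratio was -0.28 (-0.51 to -0.05). Aire-intermediate cells (36 and 23 UMIs, -1.05, -1.87 to -0.25) and enterocyte-like cells (38 and 16 UMIs, -1.28, -2.23 to -0.41) were past 1.5-fold, where 8.44% and 9.53% of all genes were lower by that much. These rest on few cells, since 22.2% of the Aire-intermediate UMIs in the control library came from 1 cell, and with gate cuts set 1.5 times as high the Aire-intermediate ratio was -0.24. With the same weight for each class in both libraries the ratio over all kept cells was -0.29.

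Cd274 was lower in the irradiated library in Pdpn-positive cells, at 0.875 and 0.513 UMIs per 10000 (182 and 68 UMIs, -0.77, -1.20 to -0.36), and in tuft-like cells, at 0.675 and 0.445 (128 and 64 UMIs, -0.60, -1.06 to -0.16). The genes past 1.5-fold on the lower side were 5.14% in the first class and 7.19% in the second. Of the control UMIs in Pdpn-positive cells, 20.3% came from 2 cells, and the log2 ratio without the top 1% of cells was -0.60. In cTEC-like cells the levels were 1.91 and 1.76 (-0.12, -0.31 to 0.07). Cd80 in Pdpn-positive cells had 4 and 17 UMIs, of which 14 came from 1 cell. Over all kept cells 0 of the 5 ligands were past 1.5-fold, beside 2.32% of 18788 genes higher and 10.8% lower.

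Every other ligand with at least 50 UMIs in a class stayed within 1.5-fold. That was 1 ligand in cTEC-like cells, where 4.24% of all genes were higher and 5.35% lower by that much, and 1 in nurse cTEC-like cells (5.57% and 5.73%). It was 4 in G2/M cells (4.31% and 4.09%), 4 in S phase cells (4.34% and 4.22%) and 2 in microfold-like cells (11.7% and 13.2%). None was higher by 1.5-fold in tuft-like, Aire-intermediate, enterocyte-like or Pdpn-positive cells, where 4.2%, 5.69%, 6.73% and 5.26% of all genes were.

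**Figure D4:**
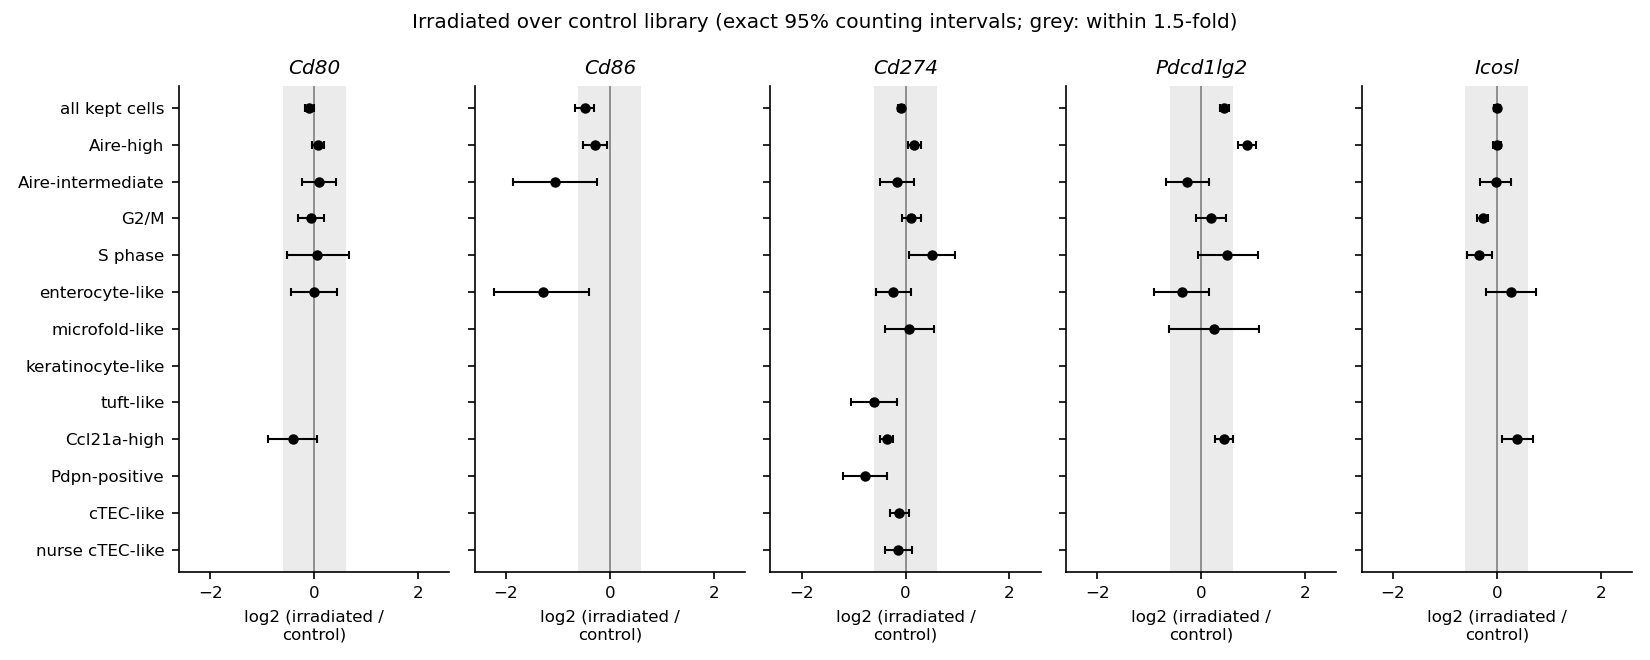
Log2 ratio of the irradiated over the control level of each ligand (x axis) over all kept cells and in each class with at least 50 UMIs (rows), with exact 95% counting intervals. The grey band marks ratios within 1.5-fold. The point for Pdcd1lg2 in Aire-high cells, at 0.88, lies right of the band, and those for Cd86 in Aire-intermediate and enterocyte-like cells and for Cd274 in Pdpn-positive and tuft-like cells lie left of it.

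Other genes of the pathway were described from lists of 49 genes, of which 47 were in the files. Of 7 TNF-family ligands 3 could be tested. Cd70, the ligand of CD27, and Tnfsf9, the ligand of 4-1BB, were lower than in Aire-high cells in cTEC-like (-4.83 ± 0.27 and -5.89 ± 0.62) and Ccl21a-high cells (-3.84 ± 0.21 and -3.49 ± 0.36), and Tnfsf15 was lower in cTEC-like cells. Cd40, which receives the CD40 ligand of T cells, was lower in both as well (-3.16 ± 0.22 and -2.96 ± 0.19). All 3 MHC class II genes, H2-Aa, H2-Ab1 and Cd74, were lower than in Aire-high cells in the cTEC-like, Ccl21a-high and G2/M classes. Of all genes, 35.1%, 32.5% and 23% were lower in those classes. Of 9 regulators tested in cTEC-like cells, 5 were lower, 3 were higher and 1 did not pass, beside 35.1% and 25.2% of all genes. Relb (-1.86 ± 0.17) and Nfkb2 (-2.12 ± 0.20) of the non-canonical NF-kB pathway were among the lower. Irf1 (0.84 ± 0.27) and Nfkb1 (0.82 ± 0.16) were among the higher.

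The list of other checkpoint ligands, which also holds the receptor gene Havcr2 (TIM-3), did not share 1 pattern. Of 7 tested in cTEC-like cells, Lgals9, which encodes the TIM-3 ligand galectin-9 (2.87 ± 0.17), and Rgmb, a partner of PD-L2 (1.00 ± 0.19), were higher, 4 were lower and 1 did not pass. Of all genes, 25.2% were higher and 35.1% lower in cTEC-like cells, to be read beside each count given here. Nectin-type ligands were higher in 2 of 5 (Nectin1, 1.76 ± 0.14, and Cd200, 0.96 ± 0.22) and lower in 1 (Nectin2). Adhesion ligands were lower in 3 of 5, among them Icam1 (-1.20 ± 0.21), and higher in 1, Vcam1 (0.82 ± 0.18). Of the B7 relatives 2 could be tested, Cd276 and Vsir, and neither passed in cTEC-like cells. Of the 5 receptors that T cells carry for such ligands 3 could be tested there: Cd28 was higher (1.60 ± 0.65), Ctla4 lower (-4.30 ± 1.37) and Icos did not pass.

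Between the libraries, Tnfsf9 was lower in the irradiated library over all kept cells (0.215 and 0.123 UMIs per 10000, log2 ratio -0.81, -0.93 to -0.68), in Aire-high cells (-0.60) and in G2/M cells (-1.23). Tnfsf4, of the same TNF-family list, was lower by at least 1.5-fold over all kept cells too. From the list of other checkpoint ligands, Fgl2 and Ceacam1 were lower over all kept cells (-0.77 and -1.01). Among classes with at least 50 UMIs of the gene, Fgl2 was lower by 1.5-fold only in Aire-high cells. Ceacam1 was so only in enterocyte-like cells (8.96% and 9.53% of all genes in those classes). Of all genes, 10.8% were lower and 2.32% higher by at least 1.5-fold over all kept cells. Some listed genes were higher by that much in the irradiated library, among them Btla over all kept cells and Havcr2 and Ctla4 in Aire-high cells. Cd40 was so in cTEC-like (0.17 and 0.273 UMIs per 10000) and nurse cTEC-like cells (0.135 and 0.359), beside 4.24% and 5.57% of all genes. Relb was within 1.5-fold in Aire-high cells, at 3.7 and 4.13 UMIs per 10000. There 0 of 3 MHC class II genes were past 1.5-fold, beside 4.05% of all genes higher and 8.96% lower. Irf1, an interferon-induced factor, was lower in the irradiated library in Pdpn-positive cells (2.86 and 1.13, -1.34, -1.61 to -1.08), as was Icam1 (4.87 and 2.31, -1.08), 1 of the 2 classes in which Cd274 was lower by 1.5-fold. In cTEC-like cells Irf1 was lower (-0.80) while Cd274 was within 1.5-fold. Irf1 was also lower by at least 1.5-fold in S phase cells, where Cd274 was higher (0.50), and in microfold-like cells, where Cd274 was at 0.08. In tuft-like cells, the other class with lower Cd274, no tested regulator was lower by that much. A link between Irf1 and Cd274 was not tested. Cd28, the T cell receptor of CD80 and CD86, was higher in Ccl21a-high cells of the irradiated library (0.131 and 0.263, 1.01, 0.75 to 1.27). It was also higher by at least 1.5-fold over all kept cells, but lower by at least 1.5-fold in G2/M and Aire-intermediate cells.

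Genes whose levels were most like each ligand over the 12 classes in both libraries (24 points) were found by the Pearson correlation of log2(UMIs per 10000 + 0.01) among 15105 genes with at least 200 UMIs. The points share 2 libraries and classes that were cut on Aire and other markers, so the values are a description. For Icosl the first 5 were Rasgef1a (r = 0.963), Has2, Aire (0.952), Ogfrl1 and Mamstr. For Cd80 they were Muc1 (0.962), Pla1a, Skint4, Clptm1 and Gdap1l1, for Cd86 Myh15 (0.936), Sftpa1, Ces1f, Csf2 and Stkld1, and for Pdcd1lg2 Swap70 (0.93), Igfals, Slc30a2, Slc7a7 and Sync. Cd274 had the weakest likeness, led by Fxyd2 (0.902), Slc25a13, Pdcd10, Snap23 and Mfsd12. Among the ligands, the most alike pair was Icosl and Pdcd1lg2 (r = 0.788). Cd80 had r = 0.725 with Cd86 and 0.726 with Icosl. Cd86 had r = 0.642 with Pdcd1lg2 and 0.590 with Icosl. Cd274 had r = -0.10 with its neighbour Pdcd1lg2.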

How the data were processed

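Single-cell RNA libraries of sorted TECs were used, 1 per condition, each from 3 pooled mice. The deposited values are raw UMI counts per gene and barcode, which the authors made with Cell Ranger against mm10. The version is 5.0.1 in the file header and 5.1 in the submitters' processing notes. The labels and the study's methods name different kit versions.

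Cells with 2000 to 7500 detected genes and under 15% mitochondrial UMIs were kept, and the kept cells hold 51586327 control and 75542631 irradiated UMIs. Each was gated by UMIs per 10000 of marker lists (cuts from 1 for Pdpn to 32 for enterocyte and keratinocyte lists). Cells passing several gates (181 and 310) or none (320 and 341) were left out of the classes, and no doublet caller was run. UMIs were summed per class and library (24 sums, 11 residual degrees of freedom). Each class was tested against the Aire-high class with edgeR 4.0.16 (TMM, quasi-likelihood, library as a term) in R 4.3.3, with Benjamini-Hochberg adjustment over all genes tested. The libraries were not tested against each other: exact Poisson and conditional intervals cover counting error only. Scripts were tested on simulated data.

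The genes named are the 5 ligands, genes from fixed pathway lists and the 5 genes most like each ligand. The ligands and lists were chosen with earlier results of these data known. Alternatives included DESeq2 1.42.0, other scaling, filters and gate cuts, and removal of cells with haematopoietic RNA. Leaving out the 1% of cells richest in a gene was added after seeing the data. One regulator of the pathway lists is not reported here.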

Additional observations from a re-analysis of the deposited data

Results flagged for a closer look

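The log2 ratio of irradiated over control differed in sign between classes for 2 of the ligands, with each interval on one side of 0. Cd274 was higher in the irradiated library in S phase (0.50, 0.08 to 0.95) and Aire-high cells (0.17, 0.05 to 0.30), and lower in tuft-like (-0.60), Ccl21a-high (-0.36) and Pdpn-positive cells (-0.77). Icosl was higher in Ccl21a-high cells (0.39, 0.09 to 0.70) and lower in G2/M (-0.27) and S phase cells (-0.34). With 1 library per condition, the differences between classes were not tested. The intervals cover counting error alone, and UMIs varied more between cells than counting gives. For Cd274 the variance over the mean was 3.75 and 2.30 in Aire-high cells and 1.65 and 2.33 in S phase cells (control and irradiated). It was 5.18 and 2.01 in Ccl21a-high cells, 6.76 and 2.01 in Pdpn-positive cells and 2.92 and 1.775 in tuft-like cells. For Icosl in Ccl21a-high cells it was 1.87 and 2.27. The intervals are therefore too narrow for that spread, and the signs are not settled.

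Among the 1704 control and 2097 irradiated barcodes left out by the cell filter, Cd80 was at 0.22 and 0.351 UMIs per 10000, a log2 ratio of 0.68 (0.37 to 0.99), against -0.09 in kept cells. Cd86 was at 0.0485 and 0.0736 (0.60, -0.07 to 1.29), against -0.48 in kept cells. These barcodes had a median of 2177.5 and 1994 UMIs, and what they contain was not tested.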

How the results depend on the processing

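Between the libraries, 38 log2 ratios were recomputed. The ratio of Pdcd1lg2 in Aire-high cells kept its sign and size, at 0.72 to 0.92, and was 1.21 without cells with haematopoietic UMIs. Without those cells the ratio was 0.0655 for Cd80, -0.22 for Cd274 and 0.19 for Icosl over all kept cells, and -0.77 for Cd86 in Aire-high cells. With the same class weights in both libraries the values over all kept cells were -0.0037 for Cd80, -0.29 for Cd86 and -0.0771 for Icosl. Cd86 over all kept cells was -0.67 without the 1% of cells richest in it, Cd274 was -0.16 as a mean over cells, and Cd80 in Ccl21a-high cells was 0.17 with gate cuts 1.5 times as high. At a 2-fold limit 0 ligands were higher in Aire-high cells. The cause was not tested in these cases.

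Between classes, 55 differences were recomputed. Some that had passed the test kept their sign but no longer passed. These were 3 at 10% mitochondrial UMIs, 3 with gate cuts 1.5 times as high and 2 with cuts divided by 1.5. Without cells with haematopoietic UMIs they were 5. Such losses are named below only for the cTEC-like, Ccl21a-high and G2/M classes. For Cd274 in Ccl21a-high cells the value was -0.24 with relative log expression factors, -0.24 with DESeq2, -0.018 at 10% mitochondrial UMIs, -0.0616 with gate cuts divided by 1.5 and -0.0777 without cells with haematopoietic UMIs. Cd274 in G2/M cells passed the test with those factors (-0.67), with DESeq2 (-0.67), without the filter on low counts (-0.46), at 1000 detected genes (-0.49) and at 10% mitochondrial UMIs (-0.49). Cd274 in Aire-intermediate cells was 0.0279 at 1000 detected genes, 0.12 with cuts 1.5 times as high and 0.11 without cells with haematopoietic UMIs. Pdcd1lg2 in Ccl21a-high cells was 0.00297 without the filter on low counts and 0.10 without cells with haematopoietic UMIs, and in enterocyte-like cells 0.0508 with higher cuts and 0.57 without those cells. Cd86 in microfold-like cells was 0.40 with cuts divided by 1.5. Without cells with haematopoietic UMIs, Icosl in G2/M cells passed the test (-0.52) and Pdcd1lg2 no longer did (-0.77), and 1 of 40 differences was higher and 23 lower. That setting and the higher cuts left fewer classes, and the cause of the other changes was not tested.

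With 1 library left out, which gives a value with no test, the cTEC-like differences ranged from -6.23 to -4.96 for Icosl, from -5.75 to -3.45 for Cd86 and from -3.60 to -3.06 for Pdcd1lg2, and that of Cd86 in G2/M cells from -5.20 to -4.04. In 4 cases no value could be had, since the remaining library held 0 UMIs. Without the library term, which is the replicate block here, 34 differences were lower instead of 35. No paired analysis was possible between the libraries because each condition has 1 library.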

Other observations

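Aire-high cells with at least 2 UMIs of S100a8 or S100a9 per 10000 (213 control and 345 irradiated cells) were set beside those below (432 and 681). In the control library they had less Cd80 (0.69 against 0.878 UMIs per 10000), Cd274 (0.515 against 0.787) and Icosl (1.5 against 1.75). In the irradiated library the intervals overlapped for all 3, with Icosl at 1.55 against 1.73, Cd80 at 0.856 against 0.86 and Cd274 at 0.733 against 0.806. Cd86 was close in both libraries, at 0.23 against 0.243 and 0.208 against 0.19.

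Cells that passed no gate held Cd274 at 0.999 UMIs per 10000 in the control and 0.693 in the irradiated library, and Cd80 at 0.486 and 0.397.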
